A study of Mus musculus with 4 samples.

Results

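The genes described here are 24 immediate-early genes, from Fos to Arc, and 10 heat shock genes, from Hspa1a to Hsph1, read in single migratory dendritic cells (DCs). The list was drawn up by gene name with earlier results of these data known, and each of the 34 had a row in both deposited matrices of 22631 gene rows. Migratory DCs carry antigen from the skin to the lymph node, and these came from nodes draining the ear of Tnfsf4KI/+ mice, in which 1 copy of Tnfsf4 reports its own activity with blue fluorescent protein (BFP). Tnfsf4 encodes OX40L, a ligand through which DCs costimulate T cells. The ears were left untreated, or were given MC903 (calcipotriol, an analogue of vitamin D used to model atopic skin inflammation) on days 0, 2 and 4, with harvest of the nodes on day 5. The untreated ears are not described as receiving a vehicle, and the age and number of the mice in a pool are not given in the sources used here.

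From each treatment, 5000 BFP+ and 7000 BFP- cells without B220, with intermediate CD11c and with high MHC class II were sorted, and each sort carried its own hashtag antibody in a shared capture, so there were 4 populations in 2 captures. Each population is 1 pool, so no test between populations was possible. The intervals given are exact 95% intervals that cover counting error only, and they do not cover differences between mice, sorts or captures. Treatment, capture and sequencing lane are the same split and cannot be told apart.

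Immediate-early genes are transcribed within minutes of a signal from existing transcription factors such as SRF and CREB, with no need for new protein. Many of their products are transcription factors (FOS and JUN, the partners of AP-1, the EGR and NR4A families), and others end the response (the DUSP phosphatases and the mRNA-destabilising protein ZFP36). Heat shock genes encode chaperones. Hspa1a and Hspa1b are strongly inducible through heat shock factor 1, while Hspa8 and Hsp90ab1 are made by most cells at all times. Both groups can also be induced while tissue is digested and cells are sorted, and these data hold no sample in which that step was changed, so its part in the levels was not tested.

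The start regions of 4 of these genes are shown because their levels group them in the results below. Hspa1a, Hspa1b and Jun were highest in the same cluster of cells, and Fos was not. The regions run from 250 bases before to 50 bases after the start of the RefSeq transcript (GRCm38.p6), 5′ to 3′ on the gene's strand. Capitals mark TGACNTCA and TGACGT, forms of the CREB and AP-1 site, and GAANNTTC, a pair of inverted heat shock factor units.

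Hspa1a, chr17:34972107-34972406, minus strand: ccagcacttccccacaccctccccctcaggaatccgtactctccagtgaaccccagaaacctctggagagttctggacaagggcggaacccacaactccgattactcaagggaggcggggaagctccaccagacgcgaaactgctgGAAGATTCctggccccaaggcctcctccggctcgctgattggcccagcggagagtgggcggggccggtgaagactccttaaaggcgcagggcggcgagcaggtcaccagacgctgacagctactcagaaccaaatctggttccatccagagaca
Hspa1b, chr17:34959189-34959488, minus strand: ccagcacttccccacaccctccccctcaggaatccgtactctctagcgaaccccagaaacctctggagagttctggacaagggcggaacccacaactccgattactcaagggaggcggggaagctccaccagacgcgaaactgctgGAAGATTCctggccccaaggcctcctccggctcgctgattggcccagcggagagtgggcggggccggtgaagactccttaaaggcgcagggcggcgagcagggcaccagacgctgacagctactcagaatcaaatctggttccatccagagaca
Jun, chr4:95052173-95052472, minus strand: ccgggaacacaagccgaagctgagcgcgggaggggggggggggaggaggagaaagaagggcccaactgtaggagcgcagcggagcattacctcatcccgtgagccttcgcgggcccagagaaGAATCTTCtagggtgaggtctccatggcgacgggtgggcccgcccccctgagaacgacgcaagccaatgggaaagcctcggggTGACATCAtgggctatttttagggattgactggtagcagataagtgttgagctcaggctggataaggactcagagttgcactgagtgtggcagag
Fos, chr12:85473640-85473939, plus strand: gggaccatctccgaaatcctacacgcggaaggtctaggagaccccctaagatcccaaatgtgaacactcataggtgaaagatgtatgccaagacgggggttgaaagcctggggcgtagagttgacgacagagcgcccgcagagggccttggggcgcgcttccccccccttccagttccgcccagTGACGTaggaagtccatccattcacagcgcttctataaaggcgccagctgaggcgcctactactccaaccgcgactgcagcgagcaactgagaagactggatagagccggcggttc

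The Hspa1a and Hspa1b windows were identical at 98.7% of their 300 positions. They differed at 4, counted from 1 at the 5′ end with the Hspa1a base first: C44T, T47C, T249G and C276T. The 2 genes lie side by side on chromosome 17, and their transcripts share much of their length. Of all 90-base windows of the Hspa1a transcript, 49.3% were also in the Hspa1b transcript. Of the 411 such windows in the last 500 bases, where 3′ reads start, 0% were shared. Reads that fell further inside could be split between them by the authors' counting, so each gene's own value is uncertain and the sum of both is given too.

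Entries of this kind were matched for 20 of the 24 immediate-early and 7 of the 10 heat shock genes. Both strands were searched. GAANNTTC was found in 7.89% of all 32544 windows and in 5 of the 7 heat shock windows (Hspa1a, Hspa1b, Dnaja1, Hspe1 and Hsph1), and also in those of Jun and Fosl2. TTCNNGAA, the other arrangement of the same units, was in 8.55% of all windows and in those of Hspe1 and Hsph1. TGACGT was in 7.55% of all windows and in those of Fos, Atf3, Dusp1, Dusp5, Nr4a3 and Btg2, and TGACNTCA was in 8.62% and in those of Jun, Dusp1, Btg2 and Klf6. These last 2 motifs overlap where both match. The CArG box, the site of SRF, was in 1.64% of all windows and in those of Dusp5 and Zfp36. A match describes these letters and is not a measured binding site.

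The untreated capture held 33525154 UMIs (unique molecular identifiers, 1 for each captured transcript) in 9520 barcodes, and the MC903 capture 57148072 in 6316. After filters, marker gating and a dominant hashtag, 447 untreated BFP+, 4227 untreated BFP-, 1445 MC903 BFP+ and 3164 MC903 BFP- DCs remained, with medians of 5543, 2791, 10232 and 9633 UMIs. Tnfsf4 itself was at 28.5 and 33.2 CPM (UMIs scaled to the same total) in the BFP+ and at 4.12 and 4.71 CPM in the BFP- DCs of the untreated and MC903 captures. The gene of the reporter allele thus ordered the populations as their labels do. All 10 migratory DC markers, among them Ccr7 and Fscn1, were above 20 CPM in each population. RNA of other cells was present, and more of it in untreated BFP- DCs. The summed B cell markers (8 of 8 detected in each population) were at 111 CPM there and 26.9 to 28.9 CPM in the others. The summed T cell markers (10 of 10) were at 163 CPM there and 28.3 to 104 CPM elsewhere. The summed neutrophil markers were at 127 CPM there (6 of 6) and 3.72 to 39.0 CPM elsewhere (4 or 5 of 6, with Ly6g at 0 in all 3 and Mmp8 or Retnlg at 0 in 2). Clustering (below) put 17.6% of the gated untreated BFP- and 9.17% of the untreated BFP+ DCs in lymphocyte, macrophage or neutrophil clusters. These shares were 1.18% of MC903 BFP+ and 1.52% of MC903 BFP- DCs, so the populations differed in cell content. Of the barcodes kept, 21 sequences occurred in both captures.

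Most of these genes were plainly expressed in every population. In each of the 4, 22 of the 24 immediate-early and 10 of the 10 heat shock genes reached 20 CPM. The exceptions were Egr2 and Egr3, partners of Egr1 in a family of zinc finger factors, at 1.80 to 13.9 CPM. The immediate-early genes summed to 6475 CPM in untreated BFP+, 7533 CPM in untreated BFP-, 6498 CPM in MC903 BFP+ and 6394 CPM in MC903 BFP- DCs, under 1% of the UMIs. The heat shock genes summed to 5318, 6143, 5945 and 6329 CPM in the same order. Untreated BFP- DCs were thus the highest in the first sum and MC903 BFP- DCs in the second.

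Among the AP-1 genes, Fos was at 262, 290, 252 and 221 CPM in untreated BFP+, untreated BFP-, MC903 BFP+ and MC903 BFP- DCs, the order used for every gene below. Jun was at 367, 360, 701 and 540 CPM. Jun was therefore higher in both MC903 populations than in both untreated ones, which Fos was not. Junb, an AP-1 partner that restrains Jun, was at 1002, 1087, 992 and 947 CPM, and Jund at 274, 416, 256 and 283 CPM. Fosb was at 114, 149, 114 and 103 CPM and Fosl2 at 50.8, 72.6, 44.9 and 39.8 CPM. In Jund, Fosb and Fosl2 untreated BFP- DCs stood above the other populations.

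Of the other transcription factors, Egr1, a zinc finger factor, was at 114, 140, 95.9 and 99.0 CPM. Atf3, which is shared with the integrated stress response, was at 117, 173, 89.0 and 108 CPM. The nuclear receptor Nr4a1, often used as a reporter of recent receptor signalling, was at 58.2, 62.9, 38.9 and 24.2 CPM. It was lower in both MC903 populations, and lowest in MC903 BFP- DCs. Its relatives differed less, with Nr4a2 at 153, 153, 159 and 141 CPM and Nr4a3 at 311, 347, 258 and 253 CPM. Klf2 was at 95.7, 151, 76.6 and 80.7 CPM and Klf6 at 779, 731, 902 and 846 CPM. The 2 Klf genes thus ran in opposite order across the untreated and MC903 captures.

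The genes that damp the response were mostly highest in untreated BFP- DCs. Dusp2, a nuclear phosphatase of MAP kinases, was at 178, 267, 115 and 139 CPM. Zfp36 was at 809, 995, 651 and 719 CPM, and the antiproliferative gene Btg2 at 366, 500, 338 and 351 CPM. Dusp1 (404, 459, 390 and 403 CPM) and Dusp5 (190, 206, 163 and 183 CPM) had the same highest population with smaller gaps. Ier5, a regulator of heat shock factor 1, was nearly level at 647, 707, 643 and 696 CPM. Ier2 was at 106, 150, 136 and 117 CPM and Ier3 at 31.7, 38.1, 46.3 and 48.9 CPM. Arc, best known from neurons and also linked to the migration of skin DCs, was at 35.6, 57.9, 31.2 and 48.4 CPM, so that in each capture the BFP- DCs had more of it.

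Of the chaperones, the inducible Hsp70 gene Hspa1a was at 368, 643, 368 and 435 CPM and its copy Hspa1b at 367, 645, 331 and 364 CPM. Both stood apart in untreated BFP- DCs. The constitutive Hspa8 was at 1997, 1972, 2122 and 2227 CPM and Hsp90ab1 at 1593, 1733, 1954 and 2123 CPM. These were a little higher after MC903, as was the inducible Hsp90aa1 at 335, 401, 419 and 442 CPM. The mitochondrial chaperonin pair was at 63.1, 83.7, 71.4 and 74.4 CPM for Hspd1 and 344, 372, 409 and 388 CPM for Hspe1. The cochaperones were at 173, 205, 182 and 189 CPM for Dnaja1 and 52.1, 56.9, 66.6 and 59.3 CPM for Dnajb1. Hsph1, a nucleotide exchange factor of Hsp70, was at 26.8, 32.6, 23.0 and 28.7 CPM.

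**Figure D1:**
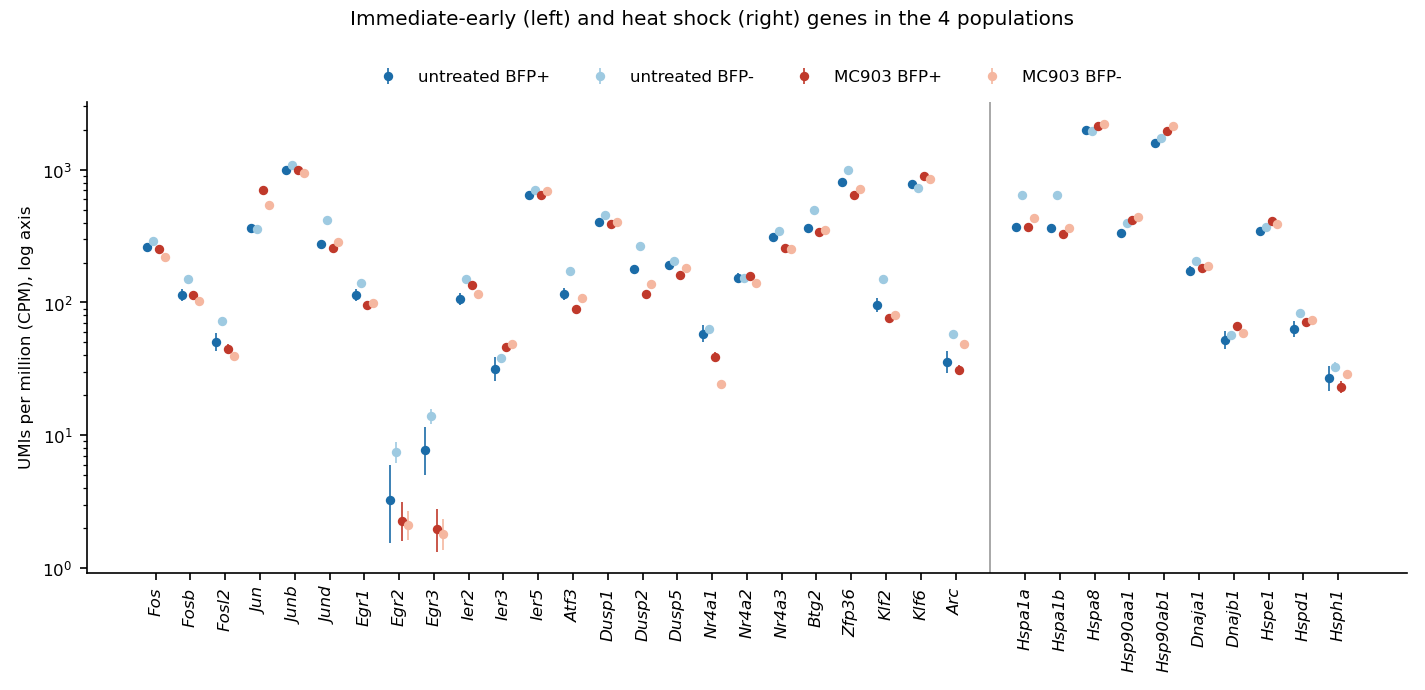
Level of each gene in the 4 populations of DCs, in CPM on a log axis, with immediate-early genes left of the line and heat shock genes right of it. Points are the sum over 1 pool of cells and bars are 95% counting intervals. Egr2 and Egr3 lie under 20 CPM, Jun is higher in both MC903 populations, and Hspa1a and Hspa1b are higher in untreated BFP- DCs.

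The range between clusters differed from gene to gene. In the MC903 capture the highest cluster was above the lowest by 1.39-fold for Klf6, 1.46-fold for Hspe1, 1.54-fold for Hspa8, 6.57-fold for Hspa1a and 17.1-fold for Nr4a1. Cells were clustered without these 34 genes, and clusters are called by number and leading genes, since most met no fixed marker rule. For 8 clusters found in both captures, the order of cluster levels in one capture was compared with that in the other. The median Spearman rho was 0.76 over the 24 immediate-early genes and 0.48 over the 10 heat shock genes, with rho above 0.5 for 18 and 5 of them. These are descriptions over 8 points, and the points of a capture share a library. Arc (0.95), Jund (0.93), Atf3 and Nr4a3 (0.90 each) kept their order most closely. Egr2 (-0.17) and Dnajb1 (-0.12) did not keep it.

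Clusters 3 and 6 had contrasting levels. Cluster 3 (leading genes Sned1, Myb and Aldh1a2) had 400 untreated and 675 MC903 DCs. Hspa1a there was at 1003 CPM in the untreated and 834 CPM in the MC903 capture, and Jun at 667 and 1134 CPM, the highest among the clusters with 50 or more gated DCs in each capture. In the same cluster Nr4a1 was at 8.33 and 2.92 CPM, Nr4a2 at 50.8 and 47.5 CPM and Nr4a3 at 86.3 and 42.9 CPM, the lowest in each capture. High Jun and Hsp70 thus went with low NR4A genes in these cells. Untreated cluster 8 (described below) was close, with Hspa1a at 919, Jun at 555, Nr4a2 at 53.3 and Nr4a3 at 87.8 CPM. The intervals of Hspa1a and of the NR4A genes overlapped between clusters 3 and 8 in that capture. Those untreated ranks are therefore close. Overlap does not show that the levels are equal, and no ratio between these clusters was taken. After MC903 cluster 8 was further off, with Jun at 365 and Nr4a2 at 147 CPM.

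Cluster 6 (Efnb2, Galc and Gpr65; 102 untreated and 636 MC903 DCs) had low Hspa1a, at 269 and 127 CPM (cluster 1 was lower in the untreated capture), and the lowest Jun, at 198 and 220 CPM. Its Nr4a2, at 348 and 434 CPM, and its Junb, at 1681 and 1673 CPM, were the highest. Untreated clusters 5 (led by Cd209a) and 16 (led by Xcr1) were close in Nr4a2, at 345 and 310 CPM with overlapping intervals. Nr4a3 in cluster 6 was at 696 and 634 CPM, under cluster 11 in the untreated capture (856 CPM). Its Nr4a1, at 45.0 and 42.5 CPM, was above that of cluster 3 but not the highest. Fos (465 and 419 CPM) and Zfp36 (1367 and 1267 CPM) were also high in it. Its immediate-early sum was the highest of any cluster in both captures (9815 and 9439 CPM), and its heat shock sum the lowest (4534 and 4395 CPM). In the untreated capture the interval of that heat shock sum overlapped the interval of cluster 1 (4734 CPM).

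Other clusters stood out for single genes. Cluster 8 (Laptm4b, Apol10b and Asprv1) had the highest Arc, at 142 and 111 CPM, the lowest Fosl2, at 6.75 and 6.54 CPM, and the highest Hspa8, at 2758 and 2616 CPM. Cluster 11 (Ccl17 and Serpinb9b) had the highest Dusp2, at 451 and 299 CPM. Cluster 1 (Dkk2, Dll4 and Thy1) had the lowest Hspa1a of the untreated capture, 133 CPM, but 287 CPM after MC903. Cluster 0 (Cxcl1, Clu and Ehf) held 2859 untreated and 98 MC903 DCs, so it may be a feature of the untreated capture. It made up 45.6% of untreated BFP- and 31.5% of untreated BFP+ DCs, and 2.34% and 1.38% of the MC903 ones.

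**Figure D2:**
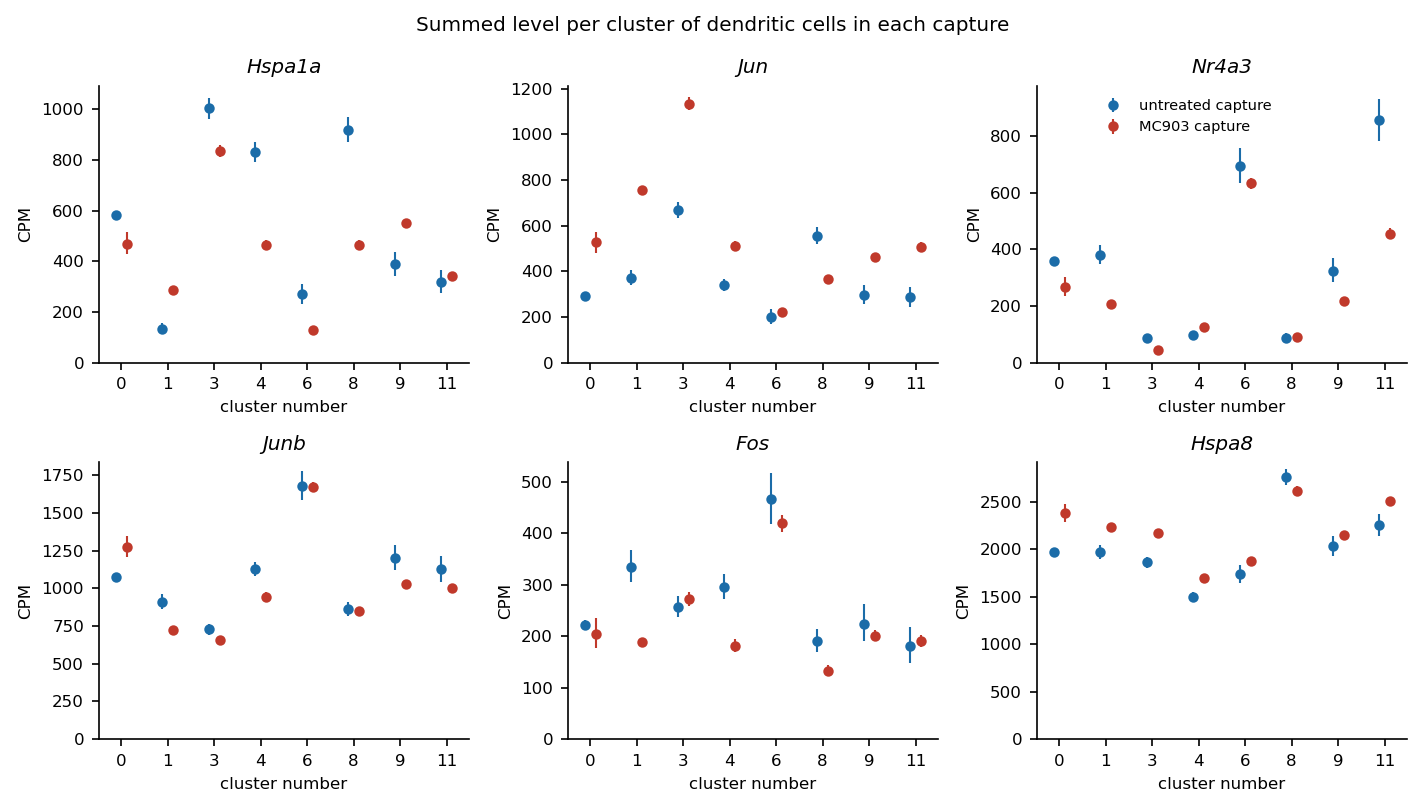
Summed level of 6 genes in the 8 clusters with at least 50 gated DCs in both captures, in CPM. Points are 1 cluster in 1 capture and bars are 95% counting intervals. Hspa1a and Jun peak in cluster 3, where Nr4a3 is low, and Nr4a3 and Junb are high in cluster 6, where Hspa1a and Jun are low.

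Fixed surface and lineage markers, used without these genes, picked out 140 Langerhans-like, 86 cDC1-like and 194 cDC2-like cells in the untreated capture, leaving 5825 DCs of no named type. The gates need few UMIs, and 102, 60 and 61 of the named cells sat at the minimum. Immediate-early genes were higher in the cDC2-like cells, at 10035 CPM in sum against 7050 CPM in the unnamed DCs (log2 ratio 0.51, 0.47 to 0.54). Fos was at 718 CPM against 258 CPM (1.48, 1.34 to 1.61). Ier2 was at 403 CPM (1.58, 1.40 to 1.76), Nr4a1 at 185 CPM (1.76, 1.48 to 2.02) and Nr4a3 at 746 CPM (1.25, 1.12 to 1.38). Egr2 and Egr3, under 20 CPM in the 4 populations, reached 45.4 and 68.9 CPM (3.23 and 3.03). Hspa1a ran the other way, at 368 CPM (-0.67, -0.85 to -0.49), as did Klf6 at 422 CPM (-0.82, -0.99 to -0.65).

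The cDC1-like cells shared part of this. Egr3 was at 180 CPM (4.42, 3.96 to 4.86) and was carried by 19 of the 86 cells, with 40% of its UMIs in 1 cell. Nr4a1 was at 164 CPM (1.59, 1.15 to 1.99), with 38.0% of its UMIs in 1 cell. Fosb was at 337 CPM (1.37, 1.07 to 1.65), with 29.1% of its UMIs in 1 cell. After thinning each cell to 1500 UMIs, 16.3% of cDC1-like cells had an Egr3 UMI (9.20% to 25.8%), against 7.73% of cDC2-like cells (4.39% to 12.4%) and 0.158% to 2.20% of the 4 DC populations. In the Langerhans-like cells ratios were smaller, with the largest positive one with an interval above 0 in Fosb (0.54, 0.26 to 0.81). Their Hspa1a was at 714 CPM (0.29, 0.15 to 0.43).

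After MC903 these gates held 42, 39 and 25 cells. The 42 that passed the Langerhans gate were led by Ccl4, Acod1 and Hdc, among others, which are not Langerhans markers. Cd207 and Epcam were also among their 10 leading genes, and 7 of 7 Langerhans markers were detected. With this mixed set of leading genes the 42 cells are left unnamed. The 39 cDC1-like cells were led by Oasl1. Their 10 leading genes held 3 of their own markers (Laptm4b, Apol10b and Cadm1), but not Xcr1 or Clec9a. The 25 cDC2-like cells again had high Nr4a3, at 632 CPM (1.33, lower bound 1.15), and high Ier2, at 316 CPM (1.38, 1.12 to 1.62). Their Fos was at 241 CPM (0.07, -0.22 to 0.34), within counting error of the unnamed DCs, and their Jun at 298 CPM (-1.01, -1.27 to -0.77). In the 39 cDC1-like cells Fos was at 99.2 CPM (-1.22, -1.70 to -0.78) and Arc at 111 CPM (1.39, 0.93 to 1.81). Barcodes set aside for lymphocyte or monocyte RNA had another profile, with Klf2 at 337 CPM in the untreated and 588 CPM in the MC903 capture (1.27 and 2.90 against unnamed DCs) and Jund at 757 and 856 CPM (0.98 and 1.65). Klf2 and Jund were thus high in barcodes with RNA of other lineages.

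**Figure D3:**
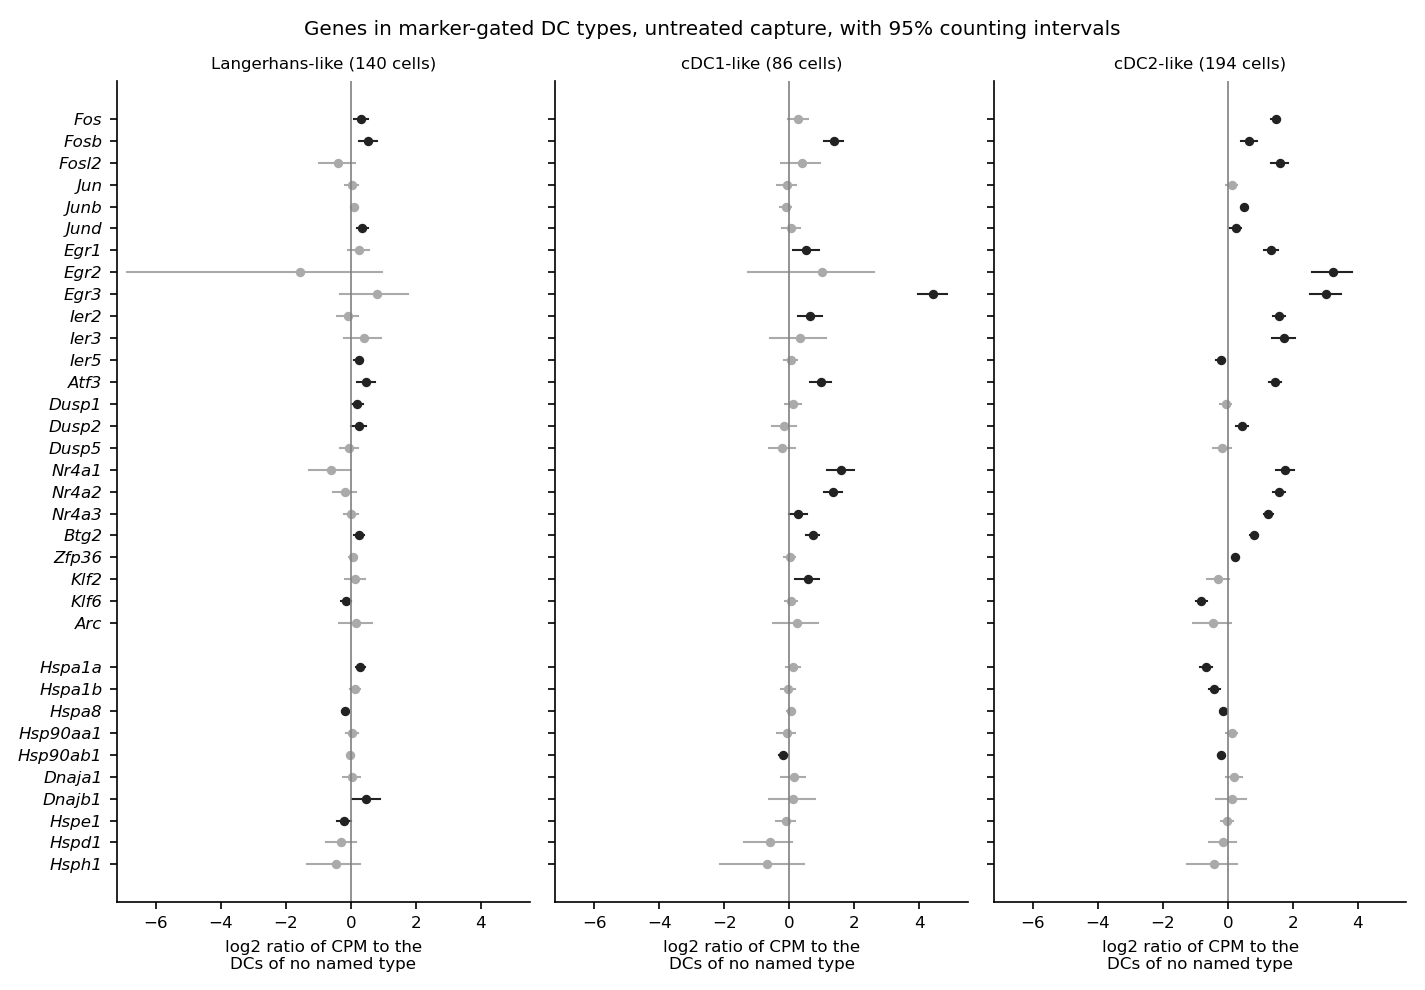
Log2 ratio of each gene in 3 marker-gated DC types to DCs of no named type, untreated capture. Points are ratios of CPM, bars are 95% counting intervals, and grey marks intervals that include 0. Many immediate-early genes lie to the right in cDC2-like cells, while Hspa1a and Klf6 lie to the left.

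Between single cells, both groups were spread thinly. After thinning to 1500 UMIs, the median DC had 9 or 10 immediate-early UMIs and 7 or 8 heat shock UMIs, depending on the population. Cells with 0 immediate-early UMIs made up 0.118% to 1.33% of a population. A UMI does not show that the cell made the RNA, since free RNA also gives UMIs and its share was not measured here. Hspa1a and Hspa1b together were at 0 UMIs in 57.0% and 37.8% of untreated BFP+ and BFP- DCs, and after MC903 in 64.1% and 61.6%. At full depth, the shares of cells with an Hspa1a UMI were 47.9%, 62.2%, 45.6% and 51.2%, and thinned they were 31.3%, 46.0%, 25.4% and 29.0%.

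Of the 561 pairs among the 34 genes, Hspa1a with Hspa1b was the single pair with a Spearman rho above 0.3 in all 4 populations (0.43 to 0.51 over 447 to 4227 cells). In untreated BFP- DCs, 63.6% of cells with an Hspa1a UMI also had one of Hspa1b (61.4% to 65.7%), against 29.9% of the cells without (28.0% to 31.8%). The next pairs were Jun with Hspa1a (0.21 to 0.33) and Jun with Hspa1b (0.18 to 0.34). The cell's immediate-early sum and its heat shock sum were nearly unrelated (rho from -0.07 to 0.03). Cells of a population share 1 library and a fixed total of UMIs, and these values are weak and descriptive.

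The reporter comparison asks how DCs that make OX40L differ from those that do not. In untreated mice, most of these genes were a little lower in BFP+ than in BFP- DCs. A gene was counted as apart when the population with more of it reached 20 CPM and the ratio was 1.5-fold or more. Of all 5052 genes with that level, 7.22% were apart by that rule, 4.12% lower and 3.11% higher. Of the 32 members with that level, 6 were lower (Arc, Klf2, Jund, Dusp2, Hspa1a and Hspa1b) and 0 higher. The median log2 ratio was -0.30 over the 24 immediate-early and -0.25 over the 10 heat shock genes, against -0.01 over all genes.

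Hspa1a and Hspa1b together were at 735 CPM in untreated BFP+ and 1287 CPM in untreated BFP- DCs (log2 ratio -0.81, -0.87 to -0.75). Taken singly the ratios were -0.80 (-0.89 to -0.71) and -0.81 (-0.90 to -0.72). Both were also lower in the 2 clusters with 50 or more cells in each population. Hspa1a was at 475 CPM against 608 CPM in cluster 0 (-0.36, -0.53 to -0.19) and at 616 CPM against 1190 CPM in cluster 3 (-0.95, -1.12 to -0.78). It was lower at each depth, with 488 CPM against 621 CPM in cells of 1500 to under 3000 UMIs and 334 CPM against 671 CPM in cells of 6000 or more. Cluster 1, where Hspa1a was low, held 16.1% of the untreated BFP+ and 1.06% of the untreated BFP- DCs.

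Arc was lower under each alternative run. It was at 35.6 CPM against 57.9 CPM (-0.70, upper bound -0.42), Klf2 at -0.65 (-0.83 to -0.48), Jund at -0.60 (-0.71 to -0.50) and Dusp2 at -0.59 (-0.72 to -0.46). In cluster 0 the ratio of Dusp2 was 0.06 (-0.14 to 0.26), and the intervals of Arc and Klf2 included 0 in both clusters. B cell, T cell and neutrophil RNA was higher in untreated BFP- DCs (above), and its part in these ratios was not tested. Jund was also lower in both clusters (-0.41 in 1 and -0.75 in the other), and Dusp2 in cluster 3 (-1.48, -2.10 to -0.90). With DC clusters in place of the marker gate, 4.604% of all genes and 9 members were lower, the same 6 with Fosl2, Ier2 and Atf3. With equal weight for each cell (thinned), 7.79% of all genes and 3 members were lower (Arc, Hspa1a and Hspa1b). With the hashtag caller HTODemux, 2.70% of all genes and 2 members were lower (Dusp2 and Arc), with Hspa1a at -0.55. Of the untreated DCs that HTODemux called BFP+, 446 had the BFP+ hashtag at 80% or more, 1219 had mixed hashtags and 238 had mostly the BFP- hashtag. BFP itself was at 80.2 CPM in the first, 63.5 CPM in the second and 34.1 CPM in the third of these classes, against 7.19 CPM in the BFP- DCs used here.

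After MC903, BFP+ and BFP- DCs were closer. Of 4779 genes, 2.64% were apart, and 1.19% were higher and 1.44% lower in BFP+ DCs. Among the members 1 was higher, Nr4a1 (38.9 against 24.2 CPM, 0.68, 0.53 to 0.84), and 1 lower, Arc (31.2 against 48.4 CPM, -0.63, -0.78 to -0.49). The medians were -0.01 for immediate-early and -0.07 for heat shock genes, against -0.02 over all genes. Within clusters Nr4a1 was higher in cluster 1 (0.70, 0.43 to 0.98) and cluster 15 (1.06, 0.25 to 1.87) and lower in cluster 9 (-0.87, -1.60 to -0.19). Thinned, neither gene was apart, nor was Nr4a1 with HTODemux or a 95% hashtag share. Arc was below 0 beyond counting error in 0 of 6 clusters and above 0 in 1, cluster 1 (0.44, 0.0094 to 0.89), with a range from -0.57 to 0.44, and cluster 8, where Arc is high, held 13.0% of BFP- and 0.761% of BFP+ DCs.

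Jun did not reach 1.5-fold in that comparison but was higher in BFP+ DCs, at 701 against 540 CPM (0.38, 0.34 to 0.41). Its ratio was above 0 in 6 of 6 clusters, between 0.14 in cluster 9 (Hbb-bs, Gstt1 and Fabp4) and 0.45 in cluster 3, where it was at 1397 against 1022 CPM. Hspa1a varied in sign between the same clusters, from -0.62 in cluster 1 to 0.28 in cluster 9. A steady difference in Jun therefore stood beside a variable one in Hspa1a.

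The treatment comparison asks what 3 applications of MC903 changed. In BFP+ DCs, 7.43% of 4940 genes were apart, with 3.26% higher and 4.17% lower after MC903. Jun was the 1 member higher, at 701 against 367 CPM (0.93, 0.85 to 1.02), and Dusp2 the 1 lower, at 115 against 178 CPM (-0.62, -0.76 to -0.48). Jun was higher within both clusters large enough, at 793 against 342 CPM in cluster 1 (1.21, 1.04 to 1.39) and 1397 against 741 CPM in cluster 3 (0.91, 0.77 to 1.07). It was apart under each alternative run. Dusp2 was not lower within those clusters beyond counting error (-0.15 and 0.17).

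The chaperones were slightly higher in the pooled BFP+ DCs after MC903, with a median of 0.13 against -0.04 over all genes, and the immediate-early median was -0.11. Split by depth, the heat shock sum was higher only in cells of 6000 or more UMIs (5975 against 5370 CPM). In cells of 3000 to under 6000 UMIs it was 5319 against 5343 CPM. In those of 1500 to under 3000 UMIs (33 MC903 and 145 untreated) it was 3888 against 4912 CPM. Hspa1a had the same pooled level in both captures (368 CPM), yet it was higher after MC903 within each cluster, at 228 against 115 CPM in cluster 1 (0.99, 0.69 to 1.32) and 880 against 616 CPM in cluster 3 (0.51, 0.35 to 0.68). Hsp90aa1 (0.32, 0.23 to 0.42) and Hsp90ab1 (0.29, 0.25 to 0.34) were higher in the pooled cells. With equal weight for each cell, 9.62% of all genes were lower in place of 4.17%, and 6 members in place of 1, with Fosl2, Atf3, Nr4a1, Klf2 and Hsph1 beside Dusp2.

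In the pooled BFP- DCs most immediate-early genes were lower after MC903. Split by depth, their sum was lower only in cells of 6000 or more UMIs (6281 against 7835 CPM). In cells of 3000 to under 6000 UMIs it was higher, at 7757 against 7307 CPM. In cells of 1500 to under 3000 UMIs (77 MC903 and 2375 untreated) it was 9921 against 7349 CPM. The part of depth in the pooled ratios was not tested. Of 5016 genes, 10.1% were apart, 5.28% lower and 4.84% higher. Among the members 6 were lower, namely Nr4a1, Dusp2, Klf2, Fosl2, Atf3 and Hspa1b, and 0 higher. The immediate-early median was -0.46, against -0.03 over all genes. Of the 22 immediate-early genes with 20 CPM, the interval of 18 lay below 0 and of 3 above. The share of all genes with such an interval was not counted, so these counts do not set the members apart. The heat shock median was -0.03. Egr2 and Egr3, under 20 CPM, were at 2.11 and 1.80 CPM against 7.43 and 13.9 CPM. The clusters in which Egr3 was highest, cluster 5 with cDC2 and cluster 16 with cDC1 markers, made up 10.7% and 2.25% of untreated BFP- DCs, and 0.885% and 0.0948% of MC903 BFP- DCs.

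Nr4a1 was at 24.2 against 62.9 CPM (-1.38, -1.51 to -1.24), and its interval lay below 0 in 3 of 5 clusters. Dusp2 was at 139 against 267 CPM (-0.94, upper bound -0.89) and lower in 4 of 5 clusters, from -1.41 in cluster 6 to -0.26 in cluster 0. Klf2 was at 80.7 against 151 CPM (-0.90, -0.98 to -0.82), with 4 of 5 clusters lower and cluster 3 higher (0.30, 0.02 to 0.60). Fosl2 was at 39.8 against 72.6 CPM (-0.87, -0.98 to -0.76) and Atf3 at 108 against 173 CPM (-0.68, -0.75 to -0.61). Within clusters Fosl2 lay below 0 in 1 of 5 and Atf3 in 2 of 5. Atf3 was not 1.5-fold lower with HTODemux, with thinned cells or with TMM scaling, while the other 5 were under each alternative run. Lymphocyte and neutrophil RNA was lower after MC903, and its part in these ratios was not tested. With DC clusters in place of the marker gate, 5.65% of all genes and 9 members were lower, these 6 with Fosb, Egr1 and Hspa1a.

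Hspa1a and Hspa1b together were at 799 CPM in MC903 BFP- and 1287 CPM in untreated BFP- DCs (-0.69, -0.71 to -0.66). Both were lower within 5 of 5 clusters. Hspa1a ranged from -1.79 in cluster 6 (123 against 424 CPM) to -0.17 in cluster 0 (538 against 608 CPM), and Hspa1b from -1.73 to -0.66. Jun was higher, at 540 against 360 CPM (0.58, 0.54 to 0.62), just under 1.5-fold, and lay above 0 in clusters 0, 3 and 4 (the last led by Tcaf2 and Pcdh7), from 0.52 to 0.78. It was lower in cluster 8 (-0.65, -0.78 to -0.53). Jun and Hspa1a, which were high in the same cluster in both captures, thus had opposite signs between the captures in BFP- DCs.

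**Figure D4:**
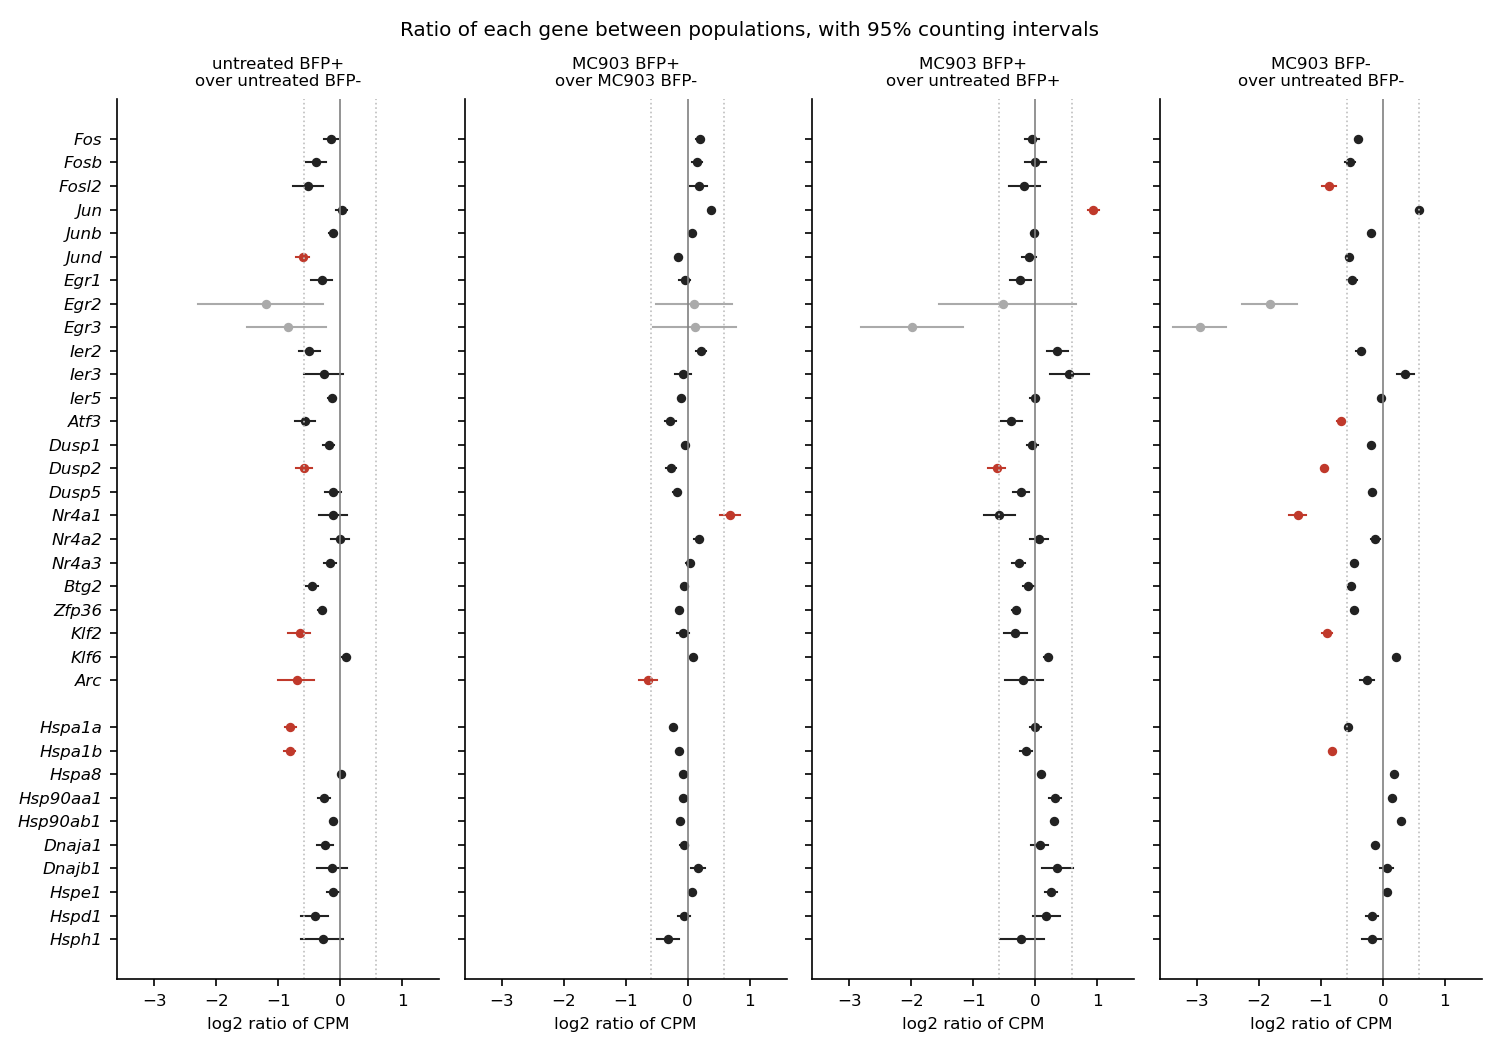
Log2 ratio of each gene in the 4 comparisons of populations, from CPM, with 95% counting intervals. Red marks genes at least 1.5-fold apart with 20 CPM or more in the higher population, dotted lines mark 1.5-fold, and grey marks genes under 20 CPM. Hspa1a and Hspa1b lie left in the first panel, Jun lies right in the third, and most immediate-early genes lie left in the fourth.

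The 2 treatment comparisons share no cells, but the first and last comparison share untreated BFP- DCs, and each population enters 2 of the 4 comparisons. The immediate-early medians of -0.30 and -0.46 are therefore not independent.

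Other genes of the same pathways were read from 4 fixed lists. Of 34 further immediate-early and dissociation genes, 26, 20, 21 and 26 reached 20 CPM in the 4 comparisons, in the order above. In untreated mice 4 of 26 were lower and 0 higher in BFP+ DCs (all genes 4.12% and 3.11%), led by Phlda1 (-1.10, -1.64 to -0.60), Rhob (-0.82, -1.08 to -0.56) and Gem (-0.67, -1.03 to -0.32). After MC903, 0 of 20 were apart between BFP+ and BFP- DCs (all genes 2.64%). In BFP- DCs 8 of 26 were lower and 1 higher after MC903 (all genes 5.28% and 4.84%), led by Id3 (-1.33, -1.57 to -1.10), the stress factor gene Cebpb (-1.22, -1.40 to -1.03) and the kinase gene Sgk1 (-0.91, -1.13 to -0.70). In BFP+ DCs 3 of 21 were higher and 1 lower (all genes 3.26% and 4.17%), led by Cebpb (-0.97, -1.37 to -0.55), Gadd45g (0.84, 0.51 to 1.20) and Plk2 (0.74, 0.47 to 1.03). The medians of this list were -0.21, 0.03, -0.01 and -0.40 in the order of the comparisons above.

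Of 21 upstream regulators, 13, 11, 12 and 13 reached 20 CPM. In untreated BFP+ DCs 1 of 13 was lower (all genes 4.12%), the mRNA-decay gene Zfp36l2 (-0.76, -1.15 to -0.40). In BFP- DCs after MC903 Zfp36l2 was lower (-1.25, -1.42 to -1.08) and the kinase gene Map2k1 higher (0.60, 0.50 to 0.70). That is 1 of 13 each way, with 5.28% of all genes lower and 4.84% higher. In the other 2 comparisons 0 were apart (all genes 2.64% and 7.43%). Of 24 further chaperones and cochaperones (19 or 20 of them at 20 CPM) and of the 8 subunits of the CCT chaperonin (8 of 8), 0 were apart in any comparison. Over all genes 7.22%, 2.64%, 7.43% and 10.1% were apart in the 4 comparisons. The medians of these 2 lists lay between -0.11 and 0.04.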

How the data were processed

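Gene expression and hashtag counts of 2 captures (10x 3′ v3) were deposited by the authors as UMI counts per barcode, from Cell Ranger (version 3.1.0, per the file headers) and GRCm38 (mm10) per the submitters' processing notes. Kept barcodes had 500 genes or more and no more than 10% mitochondrial UMIs. A DC had UMIs of at least 2 migratory DC markers and under 3 UMIs of each of the T cell, B cell and monocyte lists, after thinning to 1500 UMIs. Its population was the hashtag with at least 80% of at least 30 hashtag counts. Barcodes of mixed hashtags or lineages were left out in this way, and no doublet caller was run.

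A type (X-like) needed at least 2 UMIs of at least 2 of its markers. Counts were summed per population and scaled to the same total (CPM), with exact Poisson intervals for a level or a ratio and exact binomial (Clopper-Pearson) intervals for a share. Medians of a list are over genes with at least 50 UMIs in both sums together. Cells were clustered with scanpy 1.11.5 (30 principal components, 15 neighbours, Leiden resolution 0.8). Other tools were Python 3.11.15, scipy 1.17.1, R 4.3.3, Seurat 5.3.0 for HTODemux and edgeR 4.0.16 for TMM factors. The ratio intervals and thinning were tested on simulated data.

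The members and lists were chosen with earlier results of these data known. All 34 members were named, with values for those reaching 20 CPM in a population, and of each related list the 3 genes furthest apart among those counted. Alternatives were HTODemux, a 95% hashtag share, DC clusters in place of the gate, at most 5% mitochondrial UMIs, thinning, TMM, no UMI minimum and 3 UMIs for a type. Levels by cluster, contrasts within clusters, the split by depth and the split of HTODemux calls were added after seeing the data. Sequences are from RefSeq (GRCm38.p6).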

Additional observations from a re-analysis of the deposited data

Results flagged for a closer look

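For 7 contrasts the counting intervals excluded 0 in opposite directions in 2 settings. With 1 pool per population the difference itself was not tested. The share of all genes with such a pattern was not counted either, so the number of members with it does not set them apart. Between BFP+ and BFP- DCs, 6 genes were lower in BFP+ cells of untreated mice and higher in those of MC903-treated mice. The log2 ratio of Fos was -0.144 in untreated and 0.192 in MC903 DCs. That of Fosb was -0.381 and 0.148, that of Fosl2 -0.517 and 0.175, and that of Junb -0.118 and 0.0658. With HTODemux the MC903 ratio of Fosl2 turned to -0.017, and within clusters Fosl2 was above 0 in 1 of 2 and below in 0 in untreated mice, and apart in 0 of 6 after MC903. In the pooled DCs, 4 of the 6 AP-1 genes in the list had this pattern, while Jun (0.03 and 0.38) and Jund (-0.60 and -0.15) did not. The other 2 genes were Ier2, at -0.496 and 0.218, and the chaperonin gene Hspe1, at -0.114 and 0.0774. Within clusters of untreated mice, Fos, Fosb, Junb and Hspe1 were each below 0 in 1 of 2, and Ier2 in 0. After MC903 Junb was above 0 in 4 of 6 and Ier2 in 1, with 0 below. Fosb was above in 4, Fos in 3 and Hspe1 in 1, each with 1 below. In the treatment contrast Ier2 was the 1 gene whose intervals excluded 0 in opposite directions, at 0.357 in BFP+ and -0.357 in BFP- DCs. Within clusters it was above 0 in 1 of 2 and below in 0 in BFP+ DCs. In BFP- DCs it was above in 1 and below in 1 of 5. Thinned, 14.6% of MC903 and 16.1% of untreated BFP+ DCs had an Ier2 UMI, with overlapping intervals. The 7 contrasts share populations, so they are not independent.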

How the results depend on the processing

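No paired analysis was possible because each population is 1 pool of cells and no replicate numbers pair the captures. Of the medians, counts and summed type ratios, 103 values under the alternatives stayed within the interval or 1.5 times the count of the value given above, 43 moved and 2 changed sign from a value whose interval excluded 0. Of the single genes, 199 stayed, 77 moved and 4 changed sign in that way. Values whose interval included 0 also crossed it, and count as moved.

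Percentages in brackets give the share of all genes apart in that direction in the same run. With HTODemux, 2 members were lower in untreated BFP+ DCs (2.70%) and 0 higher in MC903 BFP+ DCs (1.29%). After MC903, 2 were lower in BFP+ DCs (4.79%). The heat shock median between MC903 BFP+ and BFP- DCs changed sign, from -0.07 to 0.02 (0.017), as did Fosl2 (-0.017), Hspa1a (0.0037) and Hspa1b (0.10), and the immediate-early median after MC903 in BFP- DCs was -0.50. With a 95% hashtag share these were 0 higher (1.19%), 2 lower (5.02%) and -0.52, and with DC clusters 2 lower (4.05%) and -0.55. With at most 5% mitochondrial UMIs, 2 members were higher after MC903 in BFP+ (3.44%) and 1 in BFP- DCs (5.23%). With thinned cells, 3 were lower in untreated BFP+ DCs (7.79%), and 0 higher (2.10%) and 0 lower (3.17%) in MC903 BFP+ DCs. Thinned, 6 were lower after MC903 in BFP+ DCs (9.62%) and 1 higher in BFP- DCs (5.64%). The medians were then -0.043 for heat shock genes between the MC903 populations and -0.29 for immediate-early genes after MC903 in BFP- DCs, and Arc changed sign there (-0.26 to 0.079). TMM shifted all genes by 0.03 to 0.11. With TMM the first of these medians was -0.040, the second -0.35 and the heat shock median in BFP- DCs 0.079. In that run 2 members were higher (5.41%) and 0 lower (2.54%) after MC903 in BFP+ DCs and 1 higher in BFP- DCs (7.09%). The cause of these changes was not tested.

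Of the summed ratios of types to unnamed DCs, the untreated Langerhans-like immediate-early ratio (0.12) was -0.085 with 3 UMIs for a type, 0.27 with at most 5% mitochondrial UMIs and 0.066 thinned, and its heat shock ratio was 0.032 with 3 UMIs. The untreated cDC1-like immediate-early ratio (0.27) was 0.56 with 3 UMIs and 0.17 with 5%, and its heat shock ratio 0.032 with 5%. The untreated cDC2-like immediate-early ratio (0.51) was 0.60, 0.41 and 0.47, and its thinned heat shock ratio -0.11. After MC903 the cells in the Langerhans gate had 0.023 with 3 UMIs and 0.61 with 5%, with a thinned heat shock ratio of -0.38. The cDC1-like ratios were 0.081 and 0.24 with 3 UMIs and -0.12 and 0.28 thinned, and the cDC2-like ratios -0.20 and 0.012 thinned.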
